A study of Mus musculus with 3 samples.

Results

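Spleen T cells from aged mice that had received fumarate were compared with spleen T cells from young mice, as 1 library against 1 library out of the 3 libraries of the series. The pair was taken by its group titles, Old + Fumarate and Young, and was compared over the 17796 genes of the deposited table. All mice were C57BL/6. The Old + Fumarate mice were given fumarate at 10 mg/kg 3 times a week for 2 months and their stated age was 24 months, with no word on whether treatment began or ended at that age. The Young mice were 2 months old and are labelled vehicle, with no stated course. The third library, Old, came from mice of 24 months given vehicle on the same schedule, and its levels are given only beside those of the pair. T cells of all 3 groups were activated for 3 days on plates coated with antibodies against CD3 (2 µg/ml) and CD28 (5 µg/ml), with interleukin 2 at 100 IU/ml and 10% serum, before polyadenylated RNA was sequenced. The pair therefore differs in age and in fumarate together, and the effects of these cannot be told apart in it. With 1 library per group, and no word on whether mice were pooled, nothing below is backed by replicates and no p-value is given.

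Levels are in CPM, that is reads of a gene after each library was brought to the same total. Differences are given as the log2 ratio of CPM + 1 in Old + Fumarate over that in Young, so that a positive value means higher in the aged fumarate library, and the added 1 shrinks the ratios of low genes. Estimated depth was 41.0 M reads for Young and 13.9 M for Old + Fumarate. Where an interval is given, it is the 95% Clopper-Pearson interval of the ratio of CPM with no 1 added, on the log2 scale. The interval rests on estimated reads, covers counting error alone, and for low genes can lie wholly beyond the shrunken ratio. For genes whose estimated reads are not whole it is approximate. A list of genes is described by those of its members that averaged 1 CPM or more over the pair, called measured here, and by how many of them were at least 1.5-fold higher or lower. A member that is measured only through the library where it is high had to differ, so counts over low genes are descriptions of these libraries and no support for a difference. The label T cells was checked against 18 T cell identity genes, and each was detected in both libraries, with summed levels of 5252 CPM in Young and 5619 CPM in Old + Fumarate. Their median log2 ratio was −0.16, and 17 of 18 lay within 1.5-fold, the exception being Thy1, a surface glycoprotein of T cells, at 752 and 1453 CPM.

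Activated T cells grow, divide and become effector cells. CD8 effector cells release perforin and granzymes from granules onto target cells, CD4 effector cells secrete cytokines that direct other immune cells, and both lose part of the homing program of resting naive cells. With age the naive pool shrinks and memory-like cells that produce effector molecules soon after stimulation take a larger share of the spleen. Fumarate is an intermediate of the tricarboxylic acid cycle, removed by fumarate hydratase. At high levels it is known to modify cysteines of KEAP1, the protein that holds the antioxidant transcription factor NRF2 in check, and to inhibit dioxygenases that use 2-oxoglutarate, among them the prolyl hydroxylases that mark HIF for destruction and the TET enzymes that oxidise methylated DNA.

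Genes of granule killing, helper cytokines, chemokines and killer cell receptors were higher in the aged fumarate library, and interferon-induced GTPases and targets of the stress factor ATF4 were lower. In all, 710 genes (3.99% of those tested) reached a 2-fold higher level and 347 (1.95%) a level lower by 2-fold or more, and 85.1% lay within 1.5-fold. Of the higher genes, 71 were at or under the limit of 3 reads in Young, and 28 of the lower genes were so in Old + Fumarate. Among 2565 genes with at least 100 CPM in 1 of the libraries, 66 were higher and 36 lower. For members of the lists, the limit of 1.5-fold was passed upward by 9.46% and downward by 7.11% of the 13421 genes with a mean of at least 1 CPM, and their median log2 ratio was −0.0021. Scaling the libraries to the T cell identity genes in place of the total would raise each log2 ratio by 0.157 before the added 1, while the other scalings tried would shift it by −0.0055 to −0.027.

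**Figure D1:**
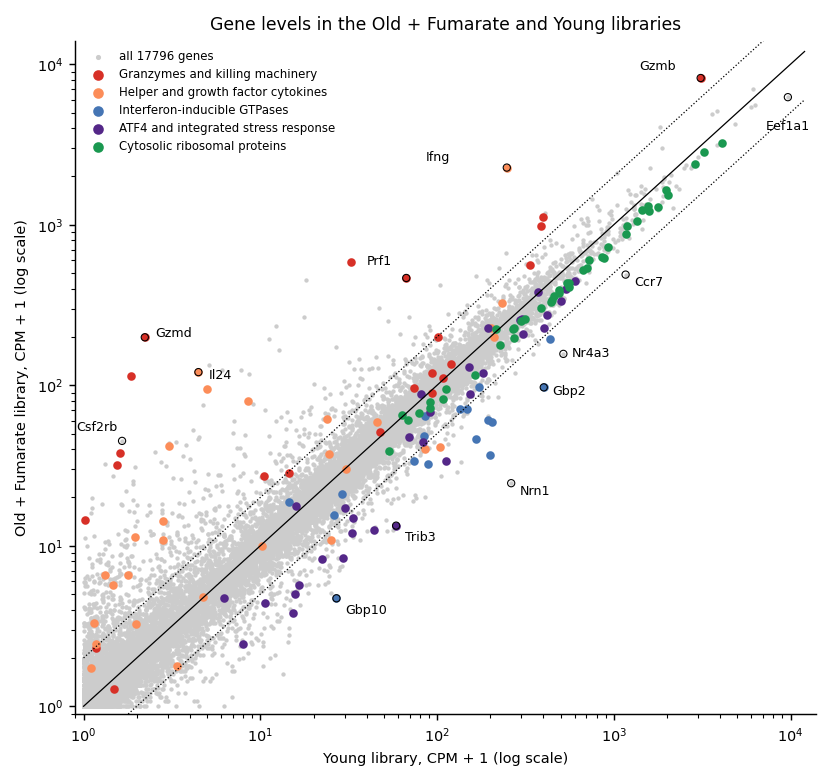
Level of each of 17796 genes in the Young library (horizontal, CPM + 1, log scale) and the Old + Fumarate library (vertical, CPM + 1, log scale), 1 point per gene. The solid line marks equal levels and the dotted lines 2-fold; coloured points are members of 5 lists. Granzyme and cytokine genes lie on both sides of the diagonal, more of them above it, up to Gzmd at 1.22 and 198 CPM, GTPase and ATF4 genes lie mostly below the diagonal, and the ribosomal protein genes lie in a narrow band under it.

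**Figure D2:**
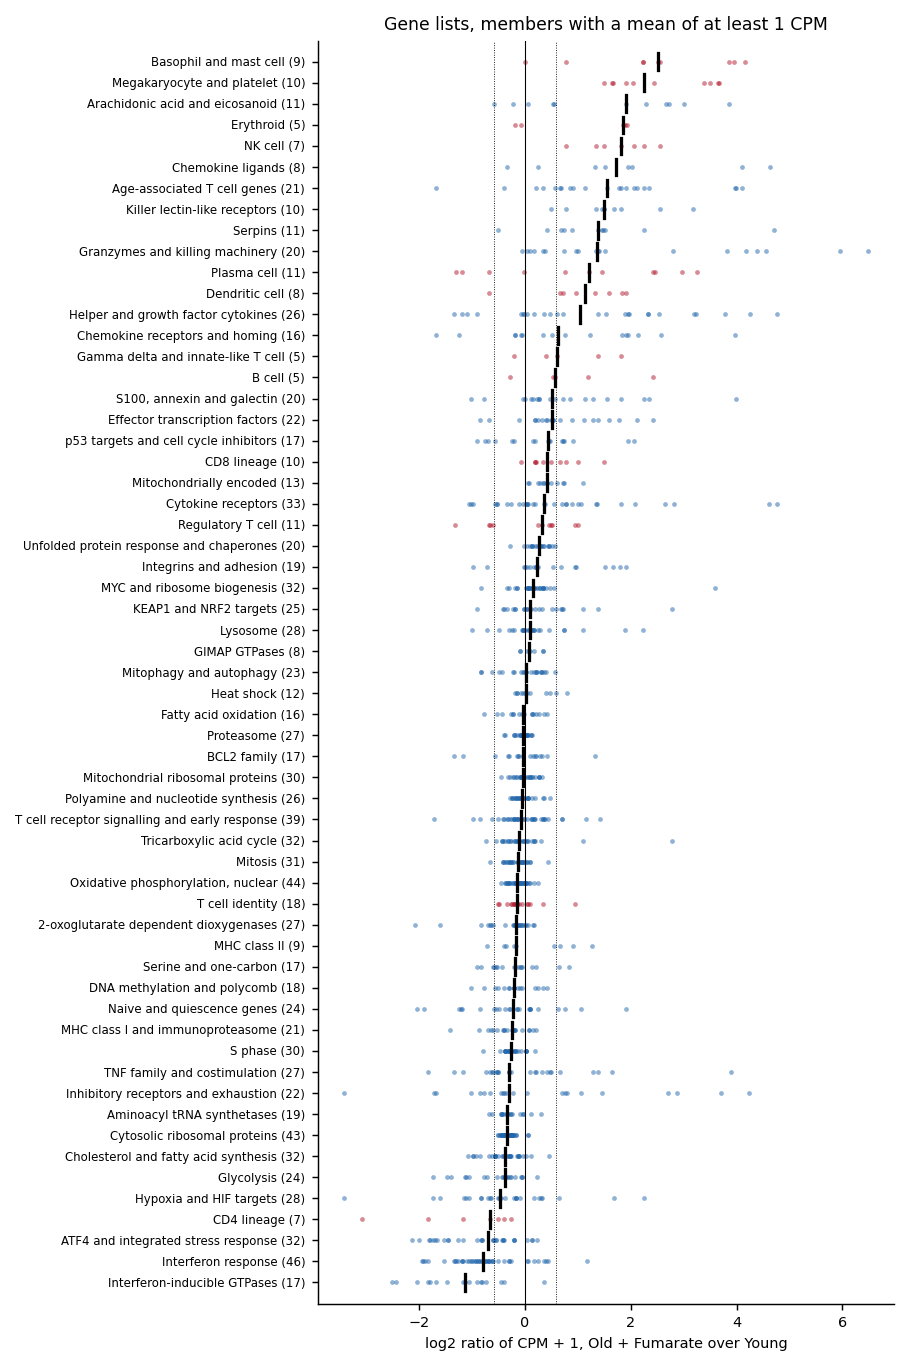
Log2 ratio of CPM + 1, Old + Fumarate over Young (horizontal), for each measured member (mean over the pair of 1 CPM or more) of the lists with 5 or more such members (number in brackets), ordered by median. Points are genes, in red for markers of cell types, black bars are medians, and dotted lines mark 1.5-fold. Lists of basophil and platelet markers lie at the top with medians of 2.51 and 2.24, and interferon-induced GTPases at the bottom with −1.14.

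The granule killing machinery was higher in the aged fumarate library. Of 20 measured genes of 22 listed, 14 were higher by 1.5-fold or more and none were lower, with a median log2 ratio of 1.36. Gzmb, the granzyme that triggers death of target cells (chromosome 14, 56258838 to 56262260, mm10), had 3098 and 8201 CPM in Young and Old + Fumarate, a log2 difference of 1.40 (interval 1.39 to 1.42). Prf1, which encodes the pore-forming perforin, was at 65.9 and 465 CPM, a difference of 2.80 (interval 2.75 to 2.88). Gzma, a second granzyme with another cleavage specificity, was at 0.537 and 31.0 CPM. Gzmb and Prf1 were thus expressed in both libraries, whereas Gzma lay under 1 CPM in Young.

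The highest ratios among named genes stood in the granzyme cluster of chromosome 14. Gzmd (chromosome 14, 56129556 to 56132608) had 1.22 and 198 CPM, a log2 difference of 6.49 (interval without the added 1, 6.94 to 7.78). Gzme was at 0.854 and 113 CPM and Gzmf at 0.610 and 36.9 CPM. These copies are close to identical and the counting may have divided reads between them, so their separate levels are uncertain. Gzmc, their neighbour, was at 31.5 and 586 CPM. Gzmg was at 0.0244 CPM in Young, under the limit of 3 reads, and at 13.5 CPM in Old + Fumarate. With Young set at that limit Gzmg was 184-fold higher, and its interval without the added 1 was 6.62 to 14.4 on the log2 scale. In the Old library Gzmd, Gzmc and Gzmb were at 104, 386 and 6290.5 CPM.

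Inhibitors that shield killer cells from their own granzymes were higher as well. Serpinb9, the inhibitor of granzyme B, was at 395 and 1123 CPM, and its relative Serpinb9b at 4.12 and 132 CPM. Of 11 measured serpins of 16 in the table, 9 were higher and none lower (median 1.38), and Serpina3g at 23.1 and 65.3 CPM has near-identical neighbours and is uncertain. Nkg7, a granule membrane protein, was at 99.7 CPM in Young and 2.01-fold higher in Old + Fumarate, and Srgn, the proteoglycan core of granules, at 386 and 979 CPM. Tnfsf10, the death ligand TRAIL, was at 9.44 and 26.3 CPM, while the death ligand gene Fasl was at 46.8 and 50.2 CPM. The 6 members within 1.5-fold included Fasl and the exocytosis genes Unc13d and Rab27a. The T-box element AGGTGTGA was searched on both strands in the 250 bases before the start. It was in 2 of 20 promoters of this list, against 0.831% of 11186 promoters. These were the promoters of Nkg7 and of Rab27a, which lay within 1.5-fold. Among genes with a mean of at least 1 CPM, the element was in 5 of 257 promoters of those at least 2-fold lower. For those at least 2-fold higher it was in 7 of 468. In the list of helper and growth factor cytokines it was in 0 of 24 promoters.

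Killer cell lectin-like receptors, which tune killing and are carried by NK cells and by effector or memory CD8 cells, were higher in 9 of 10 measured genes of 16 in the table and lower in none (median 1.49). Klrd1, the CD94 chain shared by these heterodimers, was at 24.5 and 71.0 CPM, and its partner gene Klrc1, which encodes the inhibitory NKG2A, at 55.3 and 142 CPM. Klra7, of the Ly49 family, was at 3.27 and 24.1 CPM, and is uncertain because family members are near-identical. Klrk1, the activating receptor NKG2D, lay within 1.5-fold at 84.5 and 119 CPM. Markers of NK cells moved with the granule genes: 7 of 7 measured of 12 in the table were higher, and their summed level was 66.4 CPM in Young, 203 CPM in Old + Fumarate and 171 CPM in Old. Klrc1 and Klra7, counted above among the lectin-like receptors, are also NK markers of this list. Klrc1 alone held 55.3, 142 and 96.3 CPM of those sums. The defining marker Klrb1c was at 0.0732 and 1.01 CPM, the signalling adaptor Tyrobp at 0.244 and 1.23 CPM, and Klra8 was listed at 0 in Old + Fumarate. The part of NK cells in the granule genes was not tested, and in bulk RNA more cells of a type and more RNA per cell cannot be told apart.

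**Figure D3:**
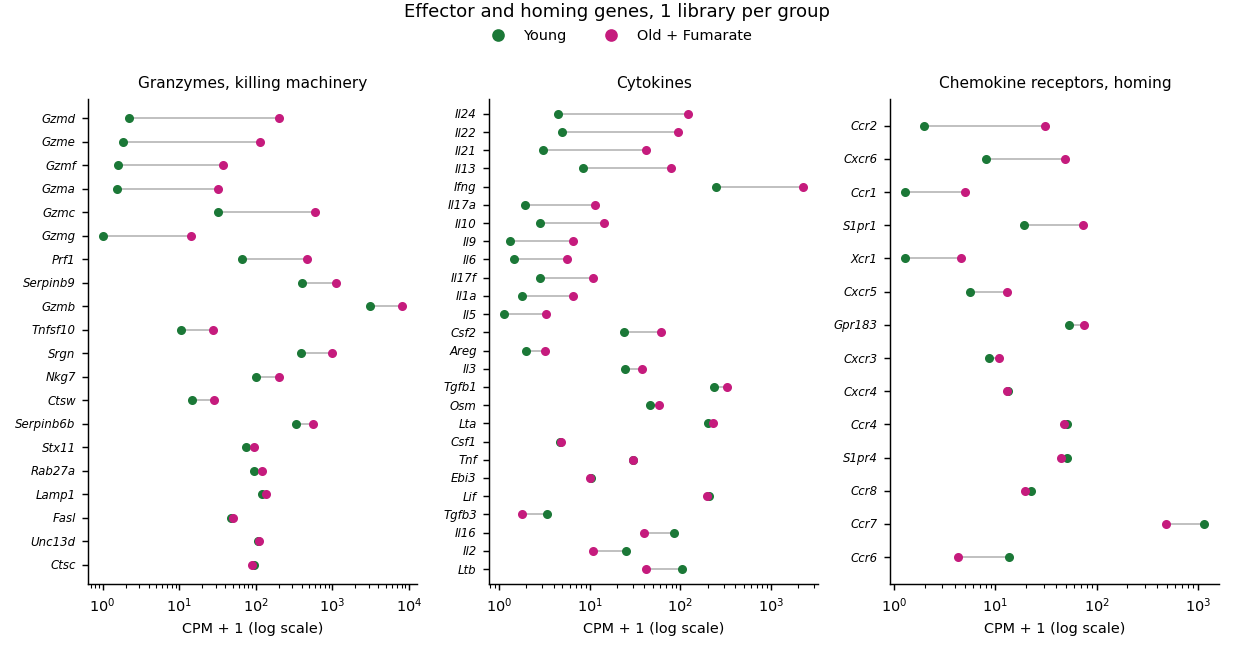
Levels (CPM + 1, log scale) in the Young (green) and Old + Fumarate (magenta) libraries for measured members of 3 lists, a few of them left out, ordered by log2 ratio, 1 library per group and no error bars. Gzmd, Il24 and Ccr2 head the panels, at 1.22 and 198 CPM, 3.46 and 119.7 CPM and 0.957 and 29.8 CPM, and Ccr7 and Ccr6 stand near the foot of the third with the lower level in Old + Fumarate.

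Helper and growth factor cytokines went the same way, with 15 of 26 measured genes of 28 in the table higher, 4 lower and a median of 1.04. Ifng, which encodes interferon gamma (chromosome 10, 118441046 to 118445892), had 247 and 2268 CPM, a log2 difference of 3.19 (interval 3.17 to 3.23). Il24, a cytokine of the interleukin 10 family, was at 3.46 and 119.7 CPM, and Il22, which acts on epithelia, at 3.97 and 93.8 CPM. Il21, the helper cytokine of follicular T cells, was at 2.06 and 40.9 CPM, and Il13, a type 2 cytokine, at 7.47 and 78.4 CPM. Il17a was at 0.951 and 10.3 CPM and Il10 at 1.83 and 13.2 CPM. The higher genes thus included cytokines known from type 1, type 2, type 17 and follicular T cells, and the cells that made them were not tested.

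A few cytokines stood lower or equal. Il2, the T cell growth factor, was at 24.0 and 9.91 CPM, a log2 difference of −1.20 (interval −1.55 to −1.02). Ltb, the lymphotoxin beta chain needed for lymphoid tissue, was at 103 and 40.3 CPM, and Il16 at 84.4 and 38.9 CPM. The other lower gene was Tgfb3 at 2.37 and 0.794 CPM. Tnf was level, at 29.3 and 29.1 CPM. In the Old library Ifng, Il2 and Tnf were at 2012, 20.8 and 27.3 CPM.

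Chemokine genes were higher in 6 of 8 measured of 15 and lower in none (median 1.72). Ccl5, a chemokine stored by effector and memory T cells, was at 10.2 and 192 CPM, and Ccl9 at 17.2 and 453 CPM, a log2 difference of 4.64 (interval 4.60 to 4.83). Ccl3, a chemokine that recruits inflammatory cells, was at 103 and 421 CPM, and its relative Ccl4 at 68.5 and 265 CPM. Cxcl10, an interferon-induced chemokine, was at 3.98 and 4.91 CPM, within 1.5-fold, while Old held 49.3 CPM.

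Some receptors that guide effector cells to tissue were higher, and Ccr7, the receptor that guides naive cells to lymph nodes, was lower. Of 16 measured chemokine receptor and homing genes of 18 in the table, 8 were higher and 2 lower (median 0.63). Ccr2 was at 0.957 and 29.8 CPM and Cxcr6 at 7.17 and 47.6 CPM, whereas Cxcr3, another receptor of effector cells, lay within 1.5-fold at 7.66 and 9.96 CPM. Ccr7 was at 1165 and 488 CPM, a log2 difference of −1.25 (interval −1.29 to −1.22), and Ccr6 at 12.7 and 3.25 CPM. S1pr1, which lets T cells leave lymphoid organs, was at 18.3 and 71.9 CPM. It belongs to the resting program and yet was higher, so that Ccr7 and S1pr1 moved in opposite directions. Among integrins and adhesion genes 7 of 19 measured were higher and 2 lower, or 1 under T cell identity scaling (median 0.23), with Itga1 and Itga2, collagen-binding chains, at 0.0732 and 2.06 CPM and at 1.56 and 7.94 CPM, and Cd226, an activating receptor, at 78.5 and 39.4 CPM.

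Cytokine receptors were higher in 14 and lower in 3 of 33 measured of 35 (median 0.35). Il2ra, the high-affinity chain of the interleukin 2 receptor, was at 1047 and 2086 CPM, a log2 difference of 0.99 (interval 0.97 to 1.02), so its level was higher while that of Il2 was lower. Il1r1, the interleukin 1 receptor, was at 0.634 and 9.24 CPM, its decoy Il1r2 at 0.756 and 11.3 CPM and Il1rl1, the interleukin 33 receptor, at 0.610 and 5.77 CPM. Csf2rb, the beta subunit that GM-CSF, interleukin 3 and interleukin 5 receptors have in common, was at 0.651, 44.0 and 536 CPM in Young, Old + Fumarate and Old, and Csf2rb2, its near-identical neighbour, at 0.325, 31.4 and 399.6 CPM, with an uncertain division of reads. Basophils and mast cells also carry these chains, and the levels of their markers are given with the other lineages at the end; their part in Csf2rb and Il1rl1 was not tested.

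Inhibitory receptors and genes of exhaustion moved both ways, 9 higher and 7 lower of 22 measured of 23 (median −0.30). Havcr2, which encodes TIM-3, was at 2.56 and 25.2 CPM, and Entpd1, the ectoenzyme CD39, at 1.78 and 17.1 CPM. Lilr4b and Lilrb4a, a pair of similar inhibitory receptors whose reads may be shared, were at 11.3 and 231 CPM and at 11.7 and 164 CPM. On the lower side stood Tox, a transcription factor of exhausted cells, at 23.3 and 6.57 CPM (log2 difference −1.69, interval −2.16 to −1.52), and Nr4a3, a factor induced by receptor signals, at 517 and 156 CPM. Pdcd1, which encodes PD-1, was at 76.7 and 58.3 CPM and Lag3 at 129 and 99.8 CPM, both within 1.5-fold. Ctla4, another inhibitory receptor, was lower at 162 and 103 CPM. Under T cell identity scaling Ctla4 lay within 1.5-fold, and 6 genes of the list were lower.

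The lowest ratio among genes of at least 100 CPM was that of Nrn1, which encodes neuritin, a protein anchored to the cell surface (chromosome 13, 36725361 to 36735131), at 262 and 23.5 CPM (log2 difference −3.42, interval −3.64 to −3.32). Old held 20.9 CPM. Nrn1 is also counted in the list of inhibitory receptors and exhaustion and in that of HIF targets given below, as the lowest member of each. St6gal1, which adds sialic acid to glycoproteins, was at 129 and 27.9 CPM, and Lrig1, a feedback inhibitor of growth factor receptors, at 104 and 26.2 CPM. Among abundant genes with the highest ratios outside the families above were Inhba, a subunit of activins, at 6.76 and 123 CPM, and Adam8, a membrane protease, at 7.61 and 116 CPM. Enpp2, which encodes autotaxin, was at 0.464 and 26.3 CPM. By difference in CPM the largest gains were Gzmb, the intermediate filament gene Vim at 1814 and 4055 CPM and Ifng, and the largest loss was Eef1a1, a translation elongation factor, at 9655 and 6230.2 CPM.

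Costimulatory genes of the TNF family were 5 higher and 7 lower of 27 (median −0.29), with 4 lower under T cell identity scaling. Tnfrsf8, which encodes CD30 on activated cells, was at 16.8 and 264 CPM, a log2 difference of 3.90 (interval 3.86 to 4.09), and Tnfsf4, the ligand OX40L, at 27.6 and 88.3 CPM. Tnfrsf4, the receptor OX40 of activated CD4 cells, was at 350.1 and 156 CPM, and Cd40lg, the ligand by which helper cells activate B cells, at 50.5 and 13.4 CPM. Of 7 CD4 lineage genes 4 were lower and none higher (median −0.66), the lowest being Trat1, an adaptor of the T cell receptor, at 12.4 and 0.577 CPM. Cd4 itself lay within 1.5-fold at 238 and 181 CPM. Of 10 CD8 lineage genes 4 were higher and none lower (median 0.41), and Cd8a was at 229 and 218 CPM. The 4 higher genes included Klrd1 and Nkg7, which are also counted above among the killer cell receptors and the granule genes. Cd4 and Cd8a thus both lay within 1.5-fold, while other members of either list passed it.

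Among 11 measured genes of regulatory T cells of 12, 2 were higher and 4 lower (median 0.32), which became 5 and 1 under T cell identity scaling. Foxp3, which defines these cells, was at 1.04 CPM in Young and 1.54 CPM in Old + Fumarate, and Izumo1r, a folate receptor of this lineage, at 10.7 and 3.68 CPM. Il2ra and Ctla4, given above, are also made by other activated cells. Genes of gamma delta and innate-like T cells were 3 higher of 5 measured of 8 in the table, among them Il23r, a receptor chain for interleukin 23, at 0.366 and 3.83 CPM. Trdc, the delta chain constant region, was at 6.07 and 5.11 CPM.

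Transcription factors of effector differentiation were 9 higher and 2 lower of 22 (median 0.51), with 1 lower under T cell identity scaling. Prdm1, which encodes Blimp-1, was at 2.46 and 17.5 CPM, and Id2, which favours effector over memory fate, at 30.8 and 138 CPM, a log2 difference of 2.12 (interval 2.06 to 2.26). Id3, the counterpart of Id2 in naive and memory cells, was at 23.4 and 5.49 CPM, so that the Id genes moved in opposite directions. Maf was at 2.12 and 9.74 CPM and Batf3 at 41.6 and 128 CPM. Tbx21, which encodes T-bet, the driver of Ifng and granule genes, lay within 1.5-fold at 76.9 and 87.7 CPM, and Eomes was at 29.7 and 47.4 CPM. Irf8 and Irf4, factors induced by receptor signals, were the lower members at 428 and 238 CPM and at 696 and 435 CPM.

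Genes of naive and quiescent cells did not move as a block, with 4 higher, 7 lower and 13 of 24 within 1.5-fold (median −0.22). Dapl1 was at 135 and 32.2 CPM and Actn1, an actin crosslinker, at 192 and 83.2 CPM. Tcf7 and Lef1, which maintain naive and memory cells, were at 167 and 149.6 CPM and at 103 and 109.6 CPM, both within 1.5-fold. Il7r, the survival receptor of naive and memory cells, was at 48.2 and 102 CPM. Tcf7 stood at 93.3 CPM in Old. Early response genes of the T cell receptor were 4 higher and 4 lower of 39, with a median of −0.08 whose sign turned with scaling to the T cell identity genes. Their lower members Nr4a3, Nr4a1 (at 189 and 104 CPM) and Egr3 (at 49.9 and 24.6 CPM) contrasted with Myb at 25.4 and 69.1 CPM.

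T cell genes known to rise with age were higher in 16 of 21 measured of 22 and lower in 1 (median 1.55). S100a6, a calcium-binding protein of memory cells, was at 3.76 and 74.1 CPM, a log2 difference of 3.98 (interval 4.06 to 4.55). Lgals3 was at 19.1 and 100.1 CPM and Anxa1, an annexin, at 0.244 and 4.91 CPM. Lgals1, which encodes galectin-1, was at 405 and 1185 CPM. The list's lower gene was Tox, given above. These levels in Old were 146, 128, 28.6 and 924 CPM. Of the S100, annexin and galectin genes 9 of 20 measured were higher and 2 lower (median 0.52), 8 of the list's genes also standing among the age-associated ones.

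Inhibitors of the cell cycle were in part higher. Of 17 measured p53 targets and cell cycle inhibitors of 19, 6 were higher and 3 lower (median 0.44). Cdkn1a, which encodes p21, was at 344 and 644 CPM, a log2 difference of 0.90 (interval 0.86 to 0.94). Cdkn2a, the locus of p16 and p19ARF and a marker of senescent cells, was at 0.512 and 5.27 CPM, and Eda2r, a p53 target and death receptor, at 1.73 and 9.53 CPM. Cdkn1b, the p27 inhibitor of resting cells, was lower at 68.8 and 40.6 CPM, as was Sesn1 with a log2 ratio of −0.92. In the BCL2 family the killer protein genes went apart: Pmaip1, which encodes NOXA, was at 16.1 and 41.6 CPM, and Bcl2l11, which encodes BIM, at 36.6 and 13.9 CPM, while Bcl2 was at 223 and 238 CPM.

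The widest block of lower genes was that of the interferon response. Of 17 interferon-inducible GTPases, which attack membranes around intracellular microbes, 14 were lower by 1.5-fold or more and none were higher, with a median of −1.14. Of 46 other measured interferon response genes of 50, 33 were lower and 1 higher (median −0.78). Both lists kept their sign under each scaling tried.

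The sequences of 3 promoters of these lists are printed because they hold the interferon-stimulated response element, the site to which IRF factors bind, and belong to named lower genes. They come from the RefSeq promoter table of build GRCm38.p6, read 5′ to 3′ on the strand of the gene, with 30 bases on each side of the match where the promoter reached so far. Capitals mark the match to GAAA, any 2 bases and GAAA again, or to its reverse complement where the element lies on the other strand.
Isg15 (chr4:156200845-156200926, minus strand): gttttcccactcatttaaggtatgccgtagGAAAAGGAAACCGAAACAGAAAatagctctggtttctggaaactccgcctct
Trim30a (chr7:104465194-104465259, minus strand): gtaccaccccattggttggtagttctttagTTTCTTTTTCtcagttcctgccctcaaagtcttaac
Gbp2 (chr3:142620574-142620643, plus strand): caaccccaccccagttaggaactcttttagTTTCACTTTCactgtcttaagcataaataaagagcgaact
The Isg15 window holds 3 overlapping matches, the first starting 78 bases before the transcript start, and those of Trim30a and Gbp2 start 36 and 59 bases before it. This element was found in 9 of 10 GTPase promoters and 42.1% of 38 promoters of the interferon response list, against 2.83% of all 11186 promoters in the 250 bases before the start. It was in 10.5% of 257 promoters of genes at least 2-fold lower and in 4.06% of 468 promoters of genes at least 2-fold higher, each with a mean of at least 1 CPM. Another interferon motif, the gamma-activated sequence TTCNNNGAA, was in 6 of 10 GTPase promoters and 18.4% of the 38. It was in 5.45% of promoters of the lower genes and 7.48% of the higher ones, against 5.93% of all. Some RefSeq starts used lie far from those of the deposited table, by 2956 bases for Gbp5 and 1926 for Tgtp1. Matches describe letters in these windows and are not shown to be used in these cells.

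Gbp2, a guanylate-binding protein (chromosome 3, 142620602 to 142638008), had 400.3 and 96.0 CPM, a log2 difference of −2.05 (interval −2.14 to −1.98). Iigp1, an immunity-related GTPase, was at 198 and 35.7 CPM (log2 difference −2.44), and Gbp5 at 165 and 45.5 CPM. Gbp10 was at 26.0 and 3.70 CPM and Ifi47 at 204 and 57.8 CPM. The exceptions within 1.5-fold were Gbp3, Gbp4 and Gbp8, the last at 13.6 and 17.7 CPM. Tgtp1, at 194 and 60.1 CPM, has the near-identical neighbour Tgtp2 and is uncertain. In Old, Gbp2, Iigp1 and Tgtp1 were at 279, 251 and 247 CPM, so that the Old + Fumarate library held the lowest level of these 3 genes among the 3 libraries.

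Isg15, a ubiquitin-like modifier, was at 27.8 and 6.50 CPM (log2 difference −1.94, interval −2.43 to −1.79), with 31.6 CPM in Old. Irf7, a master factor of the type I response, was at 17.7 and 4.04 CPM, and Mx2, an antiviral GTPase, at 4.59 and 0.577 CPM. Trim30a, a ubiquitin ligase family member, was at 123 and 47.8 CPM. The member on the higher side was Oas1a, an antiviral enzyme, at 1.68 and 5.06 CPM. Ifng itself was higher by 3.19 on the log2 scale in the same library, as given above, and the chains of its receptor went apart, with Ifngr1 at 57.6 and 99.5 CPM and Ifngr2 at 19.4 and 9.31 CPM. Macrophage markers were low in both libraries, at summed levels of 3.07 and 5.85 CPM, and Csf1r, C1qb and Vcam1 were listed at or near 0 in both. Mpeg1 and Nos2, genes known from macrophages, were nonetheless among the lowest ratios at 13.4 and 1.52 CPM and 10.4 and 1.01 CPM.

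**Figure D4:**
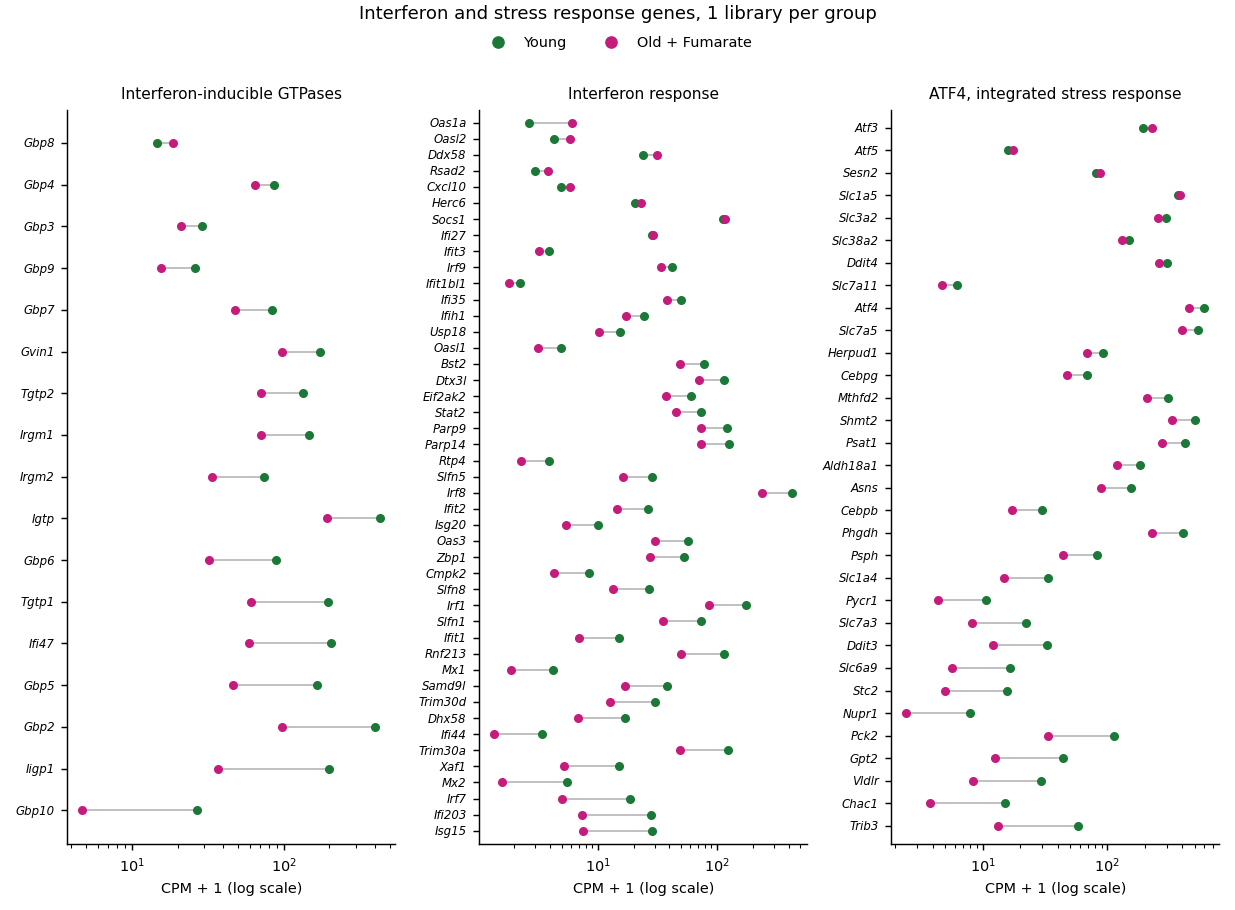
Levels (CPM + 1, log scale) in the Young (green) and Old + Fumarate (magenta) libraries for measured members of the GTPase, interferon response and ATF4 lists, a few of them left out, ordered by log2 ratio, 1 library per group and no error bars. In most rows the magenta point lies to the left, down to Gbp10 (26.0 and 3.70 CPM), Isg15 (27.8 and 6.50 CPM) and Trib3 (57.7 and 12.3 CPM) at the foot of the panels.

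Presentation of antigen by MHC class I, another interferon-inducible program, differed less. Of 21 genes 5 were lower and none higher (median −0.24), and 2 were lower with scaling to the T cell identity genes. The lower ones included Psmb9, a catalytic subunit of the immunoproteasome, at 147 and 79.6 CPM (log2 difference −0.88, interval −0.98 to −0.79), Psme2, a proteasome activator, at 81.7 and 49.7 CPM, and Tap1, the peptide transporter, at 429 and 275 CPM. H2-T24, a nonclassical class I gene, was at 10.5 and 3.32 CPM. B2m, the light chain, lay within 1.5-fold at 1126 and 991 CPM.

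Targets of ATF4, the factor that induces amino acid synthesis and transport under stress, formed the second lower block. Of 32 measured genes of this list 19 were lower and none higher, with a median of −0.71 that kept its sign under each scaling tried. A pair of promoters of its lowest members is printed because each holds TGATGNAA, the CEBP-ATF response element of ATF4 targets, shown in capitals as its reverse complement, from the same RefSeq table.
Chac1 (chr2:119351019-119351086, plus strand): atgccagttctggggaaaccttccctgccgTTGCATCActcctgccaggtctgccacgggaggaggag
Pck2 (chr14:55540133-55540200, plus strand): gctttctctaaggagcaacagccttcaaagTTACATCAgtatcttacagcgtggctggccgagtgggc
These matches start 193 and 103 bases before the transcript start. The element was in 8 of 29 promoters of the list and in 1.98% of all, and in 4.28% of promoters of genes at least 2-fold lower. Chac1, which degrades glutathione, was at 14.2 and 2.82 CPM, and Pck2, the mitochondrial PEP carboxykinase, at 111 and 32.7 CPM (log2 difference −1.74, interval −1.91 to −1.63). Trib3, a pseudokinase that feeds back on ATF4, was at 57.7 and 12.3 CPM, a log2 difference of −2.14 (interval −2.46 to −2.00). Ddit3, the stress factor CHOP, had a log2 ratio of −1.46 from 32.1 CPM in Young. Atf4 mRNA was at 600.2 and 447 CPM, within 1.5-fold, though ATF4 is known to be controlled in large part at translation.

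Gpt2, an alanine aminotransferase of the same list, was at 42.7 and 11.5 CPM. Other genes of amino acid metabolism mostly lay within 1.5-fold. In the serine and one-carbon list 4 of 17 were lower and 2 higher (median −0.18), the lower ones being 2 under T cell identity scaling, with Phgdh, the first enzyme of serine synthesis, at 401 and 226 CPM and Psph, its last, at 81.8 and 43.0 CPM. Both genes are also ATF4 targets and stand in both lists. Aminoacyl tRNA synthetase genes had a median of −0.33, and 2 of 19 were lower, Nars at 457 and 286 CPM and Cars at 128 and 82.9 CPM, and none under T cell identity scaling. In Old the levels of Trib3, Phgdh and Pck2 were 14.3, 176 and 41.5 CPM.

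Of 24 glycolysis genes, 8 passed 1.5-fold downward and none upward (median −0.38). The lower members were mostly isoforms and regulators: Aldoc, an aldolase isoform, was at 35.5 and 9.89 CPM, Pdk1, a kinase that shuts pyruvate dehydrogenase, at 211 and 102 CPM (log2 difference −1.05, interval −1.14 to −0.97), and Slc2a3, the glucose transporter GLUT3, at 220.2 and 83.4 CPM. Ldha, lactate dehydrogenase A, was at 3809 and 3152 CPM, a log2 difference of −0.27 (interval −0.29 to −0.26), and Hk2, hexokinase 2, at 313 and 367 CPM. Old held 2359.6, 65.1 and 316 CPM of Ldha, Pdk1 and Hk2.

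Targets of HIF were lower in 11 of 28 measured of 29 and higher in 3 (median −0.46). Egln3, a prolyl hydroxylase of HIF that HIF itself induces, was at 194 and 63.4 CPM (log2 difference −1.60, interval −1.72 to −1.51). Vegfa, the vascular growth factor, was at 72.1 and 32.0 CPM, and Bnip3, a mitophagy receptor, at 194 and 109 CPM. The higher members were Anxa1, Il1rn at 0.0976 and 2.53 CPM and Adm at 4.56 and 7.72 CPM. Hif1a mRNA was at 357 and 430.3 CPM. The core letters ACGTG of the hypoxia response element were in 39.1% of 23 glycolysis promoters and 47.8% of 23 promoters of the HIF list, against 21.6% of all. It was in 18.3% of promoters of genes at least 2-fold lower and in 15.2% of those at least 2-fold higher, both under the share of all.

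Genes of the enzymes that fumarate is known to inhibit, the 2-oxoglutarate dependent dioxygenases, were at least 1.5-fold lower for 7 of 27 members, with no higher member (median −0.17). With scaling to the T cell identity genes 3 were lower. Tet1, which oxidises methylated cytosine, was at 5.93 and 0.650 CPM, and Tet3, of the same family, at 76.7 and 47.1 CPM. Kdm7a, a histone demethylase, was at 24.2 and 13.1 CPM, and Egln1, the main HIF prolyl hydroxylase, at 239.9 and 153 CPM. Egln1 is also counted among the lower HIF targets above, so these lists overlap and are not separate results. Of 18 DNA methylation and polycomb genes 2 were lower, the de novo methyltransferases Dnmt3a at 119.9 and 69.4 CPM and Dnmt3b at 17.0 and 7.87 CPM. These are mRNA levels and say nothing of enzyme activity.

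Genes of the tricarboxylic acid cycle and its neighbours mostly lay within 1.5-fold, 29 of 32 measured, with 2 higher and 1 lower. Their median of −0.12 turned sign with scaling to the T cell identity genes. Fh1, the fumarate hydratase that removes fumarate, was at 96.3 and 65.9 CPM (log2 difference −0.54, interval −0.65 to −0.44), with 68.1 CPM in Old. The lower gene was Idh2, the mitochondrial isocitrate dehydrogenase, at 62.9 and 37.3 CPM, and the higher ones were Me1, the cytosolic malic enzyme, at 1.37 and 15.2 CPM, and Fah, the enzyme that releases fumarate in tyrosine breakdown, at 4.86 and 11.5 CPM. Sdha, the subunit of succinate dehydrogenase that makes fumarate, was at 265 and 245 CPM.

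Nuclear genes of oxidative phosphorylation stayed within 1.5-fold in 44 of 44 cases (median −0.14, with the sign turned under T cell identity scaling), whereas 4 of 13 mitochondrially encoded transcripts were higher and 13 of 13 had a ratio above 0 (median 0.41). mt-Nd4, a complex I subunit, was at 648 and 1082 CPM and mt-Co1, the catalytic subunit of cytochrome oxidase, at 3829 and 5141 CPM. The overlapping neighbour of mt-Nd4, mt-Nd4l, was at 30.9 and 67.4 CPM. Mitochondrial transcripts made up 1.33% of CPM in Young, 1.72% in Old + Fumarate and 2.01% in Old, a share that can also move with RNA quality, and its part was not tested.

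Targets of NRF2 mostly lay within 1.5-fold, with 7 higher, 1 lower and 17 within it of 25 measured of 30 (median 0.09). Me1 is also on this list. Srxn1, sulfiredoxin, was at 12.4, 34.0 and 96.6 CPM in Young, Old + Fumarate and Old, and Nqo1, a quinone reductase, at 1.76, 4.91 and 33.7 CPM. Both genes of the ferritin chains were higher, Fth1 at 365 and 605 CPM and Ftl1 at 407 and 653 CPM. Nfe2l2, which encodes NRF2, was at 48.4 and 52.2 CPM, Keap1 at 115 and 114 CPM and Hmox1, heme oxygenase 1, at 10.8 and 15.9 CPM. The core TGACNNNGC of the antioxidant response element was in 30.8% of 26 promoters of this list and in 1341 of all 11186.

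Lipid synthesis genes were lower in 7 of 32 measured of 33 and higher in none (median −0.37). The lower ones were 12 under upper-quartile scaling and 5 under T cell identity scaling, which also put 1 gene higher. Scd1 and Scd2, which make monounsaturated fatty acids, were at 178 and 84.2 CPM and at 1445 and 937 CPM, and Dhcr7, a late step of cholesterol synthesis, at 56.1 and 27.9 CPM. Fatty acid oxidation genes were within 1.5-fold in 15 of 16 cases, with Acaa2 lower at 44.8 and 25.6 CPM. Of 23 mitophagy and autophagy genes 3 were lower, the HIF targets Bnip3 and Bnip3l (at 194 and 108 CPM) and the lysosomal regulator Tfeb at 15.8 and 9.89 CPM. Pink1, a kinase that starts mitophagy on damaged mitochondria, was at 19.0 and 13.1 CPM, within 1.5-fold.

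The machinery of growth differed little between the libraries. Cytosolic ribosomal protein genes were lower in a narrow band, 41 of 43 below 0 with a median of −0.35 and none past 1.5-fold. The 43 genes summed to 36099 CPM in Young and 28842 CPM in Old + Fumarate. A wider set, all protein-coding genes whose symbols begin like those of ribosomal proteins, took 5.40% of CPM in Young and 4.35% in Old + Fumarate. S phase genes had a median of −0.26 and mitosis genes a median of −0.12, the latter turning sign under T cell identity scaling, with 1 gene of each list past 1.5-fold (Rfc4 at 52.1 and 29.7 CPM and Bub1 at 78.9 and 49.8 CPM) and no mitosis gene under that scaling. Mki67, the proliferation marker, was at 598 and 498 CPM. MYC targets and ribosome biogenesis genes had a median of 0.14 and 1 higher gene (3 under T cell identity scaling), with Mycn, a relative of Myc, at 1.73, 32.1 and 58.9 CPM in Young, Old + Fumarate and Old. No gene of the unfolded protein response (20, median 0.27), the proteasome (27), the mitochondrial ribosome (30), the GIMAP family (8) or polyamine and nucleotide synthesis (26) passed 1.5-fold, but under T cell identity scaling 5 genes of the unfolded protein response and 1 of polyamine and nucleotide synthesis passed it upward.

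Markers of platelets and basophils were higher in the aged fumarate library than in Young and lower than in Old. For megakaryocytes and platelets 10 of 10 measured of 12 were higher (median 2.24), at summed levels of 42.8, 281 and 1857 CPM in Young, Old + Fumarate and Old. Pf4, platelet factor 4, was at 3.17, 51.3 and 468 CPM, and Vwf, von Willebrand factor, at 0.732, 20.9 and 143 CPM. For basophils and mast cells 8 of 9 measured of 10 were higher (median 2.51), with Mcpt8, a basophil protease, at 0.122, 18.9 and 86.7 CPM, and Kit level at 2.90 and 2.89 CPM. The list's summed levels were 247, 498 and 802 CPM, and Mcpt8 and Kit held little of that in Young. Its median ranged from 0.78 to 3.86 over the other added constants, minimum levels and thinning tried. Of the erythroid list 3 of 5 measured of 12 were higher (median 1.85), among them Hbb-bt, a beta globin, at 0.0453, 2.77 and 37.6 CPM. Reads of near-identical globin genes may be shared, and the list's single member averaging 10 CPM or more had a ratio of −0.0728.

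Genes of arachidonic acid metabolism, which platelets, basophils and myeloid cells use, were higher in 6 of 11 measured of 14 and lower in 1 (median 1.90), with a median of −0.23 over the 3 members averaging 10 CPM or more and none lower under T cell identity scaling. Alox5, the 5-lipoxygenase, was at 0.268, 17.3 and 155 CPM and Ptgs1, cyclooxygenase 1, at 0.317, 9.60 and 111 CPM. They stood in the order of the platelet and basophil markers across the 3 libraries, and the part of those cells in them was not tested.

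Markers of B cells and neutrophils were low in both libraries, as were those of macrophages given above. B cell markers summed to 7.76 and 20.4 CPM, with 2 of 5 measured higher (4 under T cell identity scaling), and no neutrophil marker reached a mean of 1 CPM (sums of 0.146 and 1.59 CPM). Plasma cell genes were 7 higher and 3 lower of 11 measured of 13 (median 1.20), while their summed level was lower, at 954 CPM in Young and 667 CPM in Old + Fumarate. That median was −0.35 over the members averaging 10 CPM or more and −0.0255 over those with at least 200 estimated reads, so its sign rests on low genes. The antibody light chain constant region Igkc was at 4.05, 26.9 and 127 CPM and Ighm at 135, 54.1 and 212 CPM. Irf4, given above as a factor induced by receptor signals, also belongs to the plasma cell list. It held most of that list's summed level in Young and in Old + Fumarate. Of 8 measured dendritic cell genes of 9, 7 were higher and 1 lower (median 1.14), at summed levels of 153 and 252 CPM, with none lower under T cell identity scaling. Batf3 and Itgax (at 0.146 and 3.32 CPM) were among the higher, and T cells can express these too. Lum, which encodes the matrix protein lumican, was at 3.49, 46.5 and 55.8 CPM, while collagen genes of the stromal list were under 1 CPM.

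**Figure D5:**
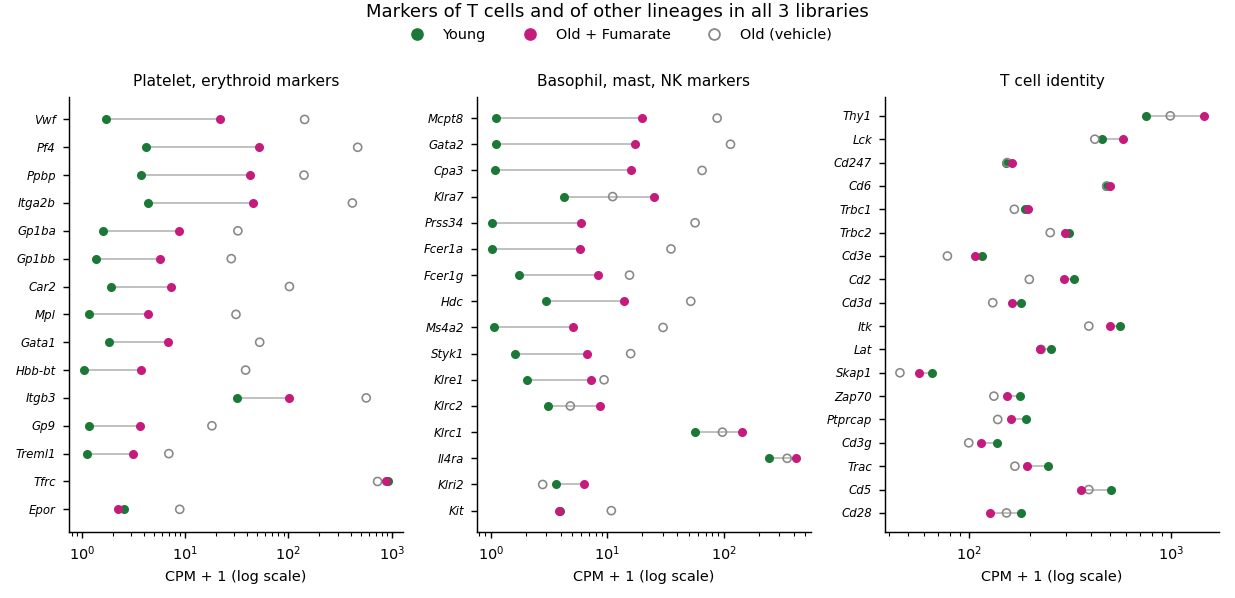
Levels (CPM + 1, log scale) of markers of other lineages and of T cells in the Young (green), Old + Fumarate (magenta) and Old (open circle) libraries, 1 library per group and no error bars. For most platelet, erythroid and basophil markers the magenta point lies between the other two, as for Pf4 at 3.17, 51.3 and 468 CPM, while T cell identity genes differ little.

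Use of T cell receptor beta variable segments was less even in the aged fumarate library. Among 20 Trbv segments, Trbv13-2 took 9.79% of Trbv CPM in Young, 18.6% in Old + Fumarate and 17.3% in Old. The inverse Simpson number, the count of equally used segments that would give the same evenness, was 15.4 in Young and 11.8 in Old + Fumarate. Segments share sequence, so their separate levels are uncertain, and summed Trbv levels were 142 and 140.3 CPM. Heavy chain variable segments of antibodies summed to 0.854 CPM in Young, 5.20 CPM in Old + Fumarate and 37.4 CPM in Old.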

How the data were processed

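RNA of activated spleen T cells (500 ng) was made into libraries with the SMARTER mRNA kit named in the labels' protocols. STAR, Partek and build mm10 were used, per the submitters' processing notes; versions, roles, annotation and strandedness of counting are not stated there, so reads of genes overlapping on opposite strands may be mixed. The deposited values are CPM, since each column sums to 1000000, although the table is named as raw counts. The step of low values gave the worth of 1 read and so the depths of 41.0 M (Young), 13.9 M (Old + Fumarate) and 17.3 M (Old). Within 0.02 reads, 66.3%, 70.8% and 69.0% of genes under 1000 reads sat at whole reads, so no count model was used to call genes. The intervals treat the estimated reads as counts. A level of 0 allows up to 3 reads, or 0.0732 CPM in Young and 0.217 CPM in Old + Fumarate.

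Groups were taken from the titles. Log2 ratios use CPM + 1 and a 2-fold limit for genes and a 1.5-fold limit for members of 63 gene lists. Members and lists were chosen with earlier results of these data known. A few members are counted in their lists but are not reported here by name. Genes named in the text are the 15 highest and 15 lowest ratios, the 12 highest and lowest with at least 100 CPM, the 10 largest gains and losses in CPM, up to 6 members per list and 36 key genes; pseudogenes, predicted, receptor segment, mitochondrial, sex-linked, histone and ribosomal protein genes were left out of the rankings. Adm, B2m, Bcl2, Ccr6, Cxcl10, Ddit3, Fasl, Foxp3, Ftl1, Gbp8, Ifngr1, Ifngr2, Il10, Il16, Irf4, Irf8, Kit, Klrb1c, Oas1a, Srgn, Tgfb3, Tyrobp and genes given without values were named after their values were seen. Gene positions follow the table, less 1 base at the end. Motifs were searched on both strands of 250 bases before the RefSeq start in GRCm38.p6, the build of mm10, for 11186 symbols. The comparison was tested on simulated reads. Tools were scipy 1.17.1, pandas 2.3.3, numpy 2.4.6, matplotlib 3.10.9 and Python 3.11.15. Alternatives were other added constants, scalings, minimum levels, thinning, gene sets and a 3-fold limit.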

Additional observations from a re-analysis of the deposited data

How the results depend on the processing

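No paired analysis was possible because each group has 1 library, and no library could be left out. Against 710 genes at least 2-fold higher and 347 lower, an added constant of 5 CPM gave 298 and 142, a mean of at least 10 CPM 235 and 155, and a 3-fold limit 319 and 98. A minimum of 200 estimated reads gave 337 higher. TMM, median-of-ratios and upper-quartile scaling, thinning the Young library, a constant of 0.5 CPM, a mean of at least 1 CPM, protein-coding genes alone and leaving out markers of other cell types kept both counts within 1.5 times. Of the genes called, 67.2% were higher, against 77.0% with scaling to the T cell identity genes and 56.2% with at least 200 estimated reads. Of 181 named genes past 2-fold, 46 fell under the limit with the constant of 5 CPM, 6 with T cell identity scaling, 5 with thinning and none with the other scalings or the constant of 0.5 CPM, and none changed sign under these settings. List medians changed sign with stricter minimums in 3 lists of low genes: plasma cell (−0.35 with a mean of at least 10 CPM, −0.0255 with at least 200 reads), erythroid (−0.0728 with either, 1 gene left) and arachidonic acid (−0.23 with a mean of at least 10 CPM, 3 genes left), where fewer genes were tested. Scaling to the T cell identity genes also turned the sign of the medians of fatty acid oxidation, polyamine and nucleotide, BCL2, mitochondrial ribosome and proteasome genes, beside the lists named above. Upper-quartile scaling turned those of mitophagy (0.014 to −0.012) and heat shock genes (0.013 to −0.015). Of 124 counts of list members higher or lower, T cell identity scaling moved 21 by over 1.5 times, upper-quartile scaling 1, TMM and median-of-ratios none, thinning 8, the constant of 5 CPM 12 and a 2-fold limit 45. The mean of at least 10 CPM moved 24 of 118 such counts and the minimum of 200 reads 16 of 120. The lower depth of the Old + Fumarate library limits its low genes most.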
